A study of Mus musculus with 46 samples.

Results

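The comparison described here set the livers of virgin SKH:QS mice that received a sunscreen with ZnO microparticles (6 arrays) against the livers of untreated virgin SKH:QS mice (6 arrays), which makes 12 of the 46 arrays of the study. Arrays were assigned by their titles alone, and no measured value chose them. The ZnO was made with a stable zinc isotope (68ZnO). Sunscreen was applied to the skin in 6 applications over 4 days, liver was taken on day 5, and collars limited licking. The protocol describes collars for the mice without setting the untreated group apart, and the ages of the mice and the time of day at which livers were taken are not given in the sources used here. The same experiment held virgin mice given a sunscreen with 68ZnO nanoparticles (6 arrays) and virgin mice given the sunscreen base without ZnO, called formulation-only (6 arrays). A parallel experiment held mice at about day 17 of gestation, from which the micro ZnO (5 arrays) and untreated (5 arrays) groups are used once below. Each array is titled as a biological replicate, so the p-values measure the spread between mice.

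The liver makes most plasma proteins and remodels this output within hours of an inflammatory stimulus, raising the acute-phase proteins under the control of interleukin 6, STAT3 and glucocorticoids. It also carries a circadian clock, in which CLOCK and ARNTL drive their own repressors and a set of output transcription factors, and a sexually dimorphic programme set by the pattern of growth hormone secretion and read through STAT5B. Zinc that enters hepatocytes is buffered by metallothioneins, whose genes respond to zinc through the factor MTF1 and also to glucocorticoids and inflammation.

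Values are log2 intensities after RMA. Where 3 values are given for a group they are its lowest, median and highest array, and log2 changes are printed with their standard error after the ± sign, except where SD is written. A gene was called when its limma p-value, adjusted by Benjamini-Hochberg over 23410 probe sets, was under 0.05, and "rose" and "fell" are used only of called genes. Among the 24 virgin arrays, pairwise correlations lay between 0.974 and 0.994, and 0 pairs of arrays were identical. The liver label was borne out by albumin, with Alb at 13.80, 13.85 and 13.92 in micro ZnO livers and 13.80, 13.88 and 13.92 in untreated livers. The arrays differed slightly in their overall distribution, with a median over all probe sets of 4.78 ± 0.04 in micro ZnO and 4.71 ± 0.03 in untreated arrays (SD, n = 6 each; two-sided exact permutation p = 0.0216), and a further quantile normalization of the arrays gave 838 calls where the values as deposited gave 1036.

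Micro ZnO livers differed from untreated livers at 1036 of 23410 probe sets, which is 4.43% of those tested, with 381 higher and 655 lower. With each gene represented by its brightest probe set, 895 of 19938 genes were called (4.49%), of which 337 rose (1.69%) and 558 fell (2.8%). The 6 micro ZnO arrays lay beyond all 6 untreated arrays at 620 genes (3.11% of 19938), above them at 217 (1.09%) and below them at 403 (2.02%), and 443 genes were both called and separated in this way (2.22%). Most called changes were modest: 162 probe sets were called and moved by at least 1.5-fold (0.692%). The median log2 change over all genes was 0.02. The number of calls depended on single mice. It was 531 without micro ZnO replicate 1, 601 without untreated replicate 1, 602 without untreated replicate 5, 650 without micro ZnO replicate 4, 652 without untreated replicate 4 and 663 without untreated replicate 3, and the fits that left out 1 array ranged up to 1115 calls. With each array's interquartile range as a covariate 529 probe sets were called, and with a clock score of 12 genes as a covariate 22. Clock scores did not overlap between the groups, so the last of these fits extrapolates between them and has less precision. Gene groups with the largest shares of calls were acute-phase proteins and clock output genes, mostly higher, and male-biased and endothelial genes, all lower.

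**Figure D1:**
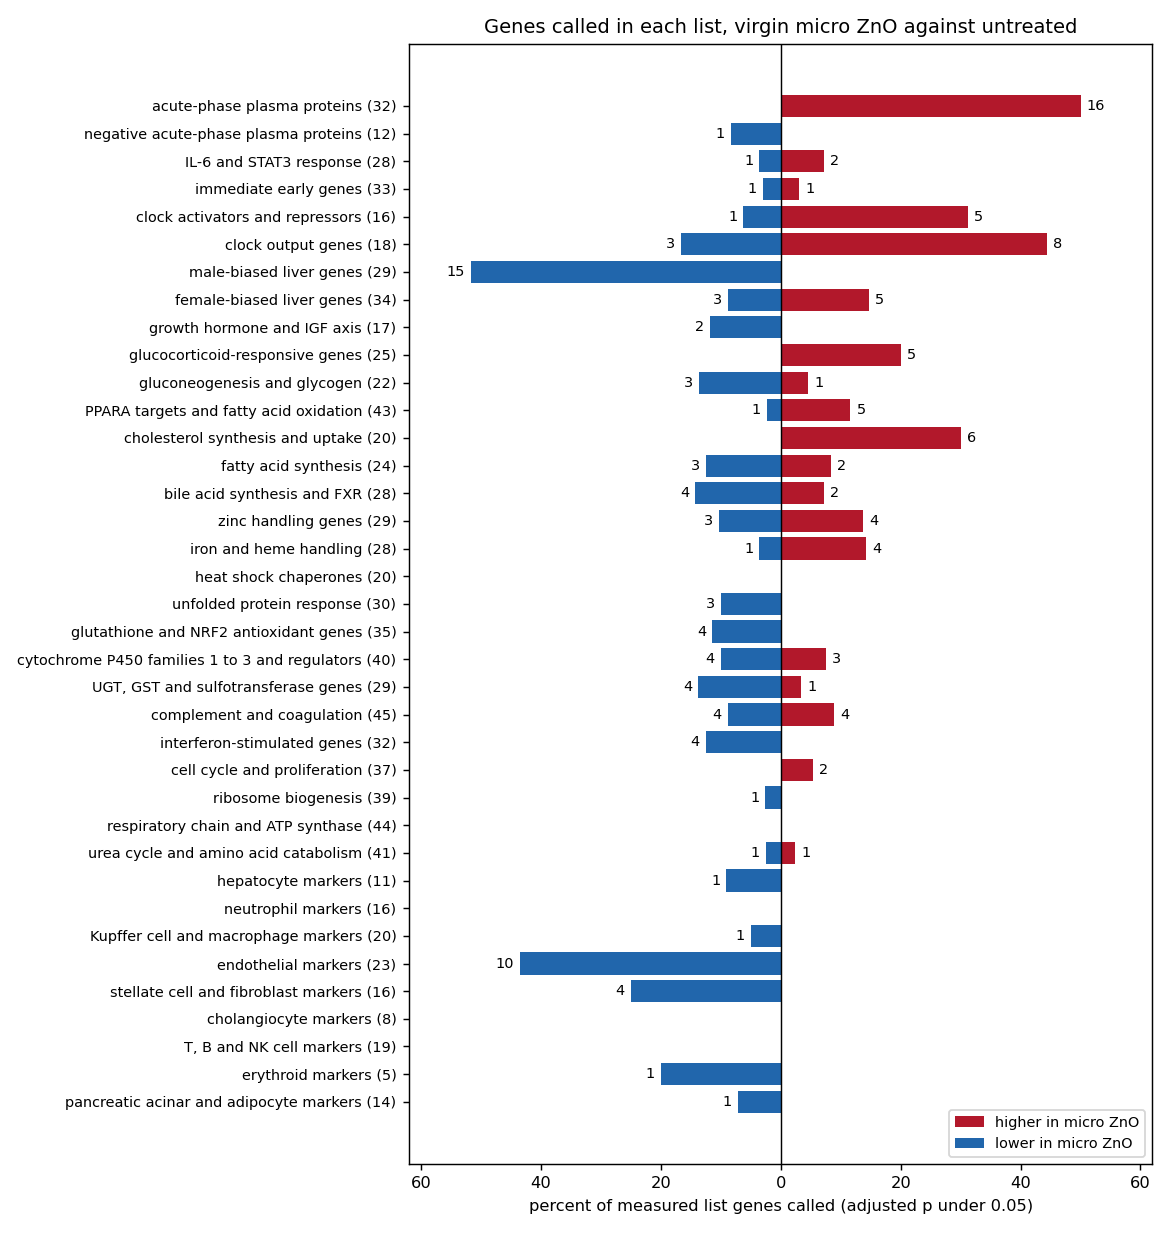
Percent of the measured genes of each list that were called (adjusted p under 0.05) in virgin micro ZnO livers against untreated livers, higher to the right and lower to the left, with the number called at each bar and the number measured in brackets after the list name. Over all genes 1.69% were called higher and 2.8% lower, against 16 of 32 acute-phase genes higher and 15 of 29 male-biased genes lower. The acute-phase and complement lists hold Olfr48 in place of C3.

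Acute-phase plasma proteins were higher after the micro ZnO sunscreen. Of 32 measured members 16 rose and 0 fell, against 1.69% of all genes that rose, and the median log2 change of the list was 0.33 against 0.02 for all genes. The list entry C3 was matched through a synonym to Olfr48, an olfactory receptor gene. Olfr48 is therefore counted among the 32, and complement C3 itself is not. The serum amyloid A genes Saa1 and Saa2, whose products ride on HDL during inflammation, had the largest rises of all separated genes. Saa1 stood at 8.26, 9.23 and 11.05 in micro ZnO livers, against 4.89, 5.76 and 6.29 in untreated livers, a log2 change of 3.82 ± 0.52 (14.1-fold, adjusted p = 0.000136). Saa2 stood at 9.15, 10.37 and 12.57 in micro ZnO livers, against 6.01, 6.84 and 7.58 in untreated livers, a log2 change of 3.73 ± 0.55 (adjusted p = 0.000349). For both genes the lowest micro ZnO liver lay well above the highest untreated liver. Orm2, an orosomucoid that carries lipophilic compounds in plasma, had 10.69, 11.27 and 11.72 in micro ZnO livers, against 7.02, 8.27 and 8.72 in untreated livers, a log2 change of 3.15 ± 0.30 (8.88-fold, adjusted p = 3.92e-07). Lcn2, which binds bacterial siderophores, had 9.14, 9.45 and 11.09 in micro ZnO livers, against 6.77, 7.84 and 8.24 in untreated livers, a log2 change of 1.98 ± 0.37 (adjusted p = 0.00243). Again no micro ZnO array fell into the untreated range.

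The more abundant members rose by less. Hp, haptoglobin, which captures free haemoglobin, stood at 12.90, 12.94 and 13.24 in micro ZnO livers, against 12.34, 12.43 and 12.64 in untreated livers, a log2 change of 0.56 ± 0.09 (1.47-fold). The heme carrier Hpx changed by 0.39 ± 0.06 and the inter-alpha-trypsin inhibitor chains Itih3 and Itih4 by 0.55 ± 0.08 and 0.40 ± 0.07 on the log2 scale. Serpina3n, a serine protease inhibitor, changed by 0.58 ± 0.11, the mouse pentraxin Apcs by 0.55 ± 0.13, ceruloplasmin (Cp) by 0.25 ± 0.06 and Orm3 by 1.16 ± 0.21. Each of these 8 genes kept its call whichever of the 12 arrays was left out, and with the exception of Orm3 their groups did not overlap. Calls of other members were less firm. Orm1 (0.46 ± 0.11) and Lrg1 (0.77 ± 0.20) lost theirs without micro ZnO replicate 4, micro ZnO replicate 6 or untreated replicate 5, where the changes were 0.40 to 0.43 and 0.69 to 0.75. The lipopolysaccharide-binding protein Lbp (0.45 ± 0.13) and the iron hormone Hamp (0.74 ± 0.22) each lost it in 9 of 12 such fits, with changes of 0.39 to 0.47 and 0.53 to 0.77.

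The acute-phase list did not move as a block. The 3 fibrinogen chains were not called, with log2 changes of -0.15 ± 0.15 for Fga, 0.13 ± 0.06 for Fgb and 0.09 ± 0.07 for Fgg. Crp, only a minor acute-phase protein in the mouse, changed by 0.21 ± 0.12 (adjusted p = 0.314). Saa4, the constitutive family member, changed by 0.27 ± 0.19 (adjusted p = 0.45). Saa3, which is also made outside hepatocytes, had 5.87, 7.32 and 8.49 in micro ZnO livers, against 4.94, 5.82 and 6.34 in untreated livers. Its log2 change of 1.43 ± 0.46 did not pass (adjusted p = 0.0699), and 2 micro ZnO livers lay within the untreated range. Among 12 plasma proteins that usually fall in the acute phase 1 fell, against 2.8% of all genes, so this call says little about the list. It was the apolipoprotein Apoa4, at 10.49, 10.72 and 10.86 in micro ZnO livers against 11.07, 11.21 and 11.44 in untreated livers (log2 change -0.52 ± 0.10, adjusted p = 0.00243). The thyroxine carrier Ttr, another of the 12, changed by -0.02 ± 0.05.

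Of 28 genes of the interleukin 6 and STAT3 response, which lie upstream of these proteins, 2 rose and 1 fell, against 1.69% and 2.8% of all genes. Pim3, a serine/threonine kinase gene induced by STAT3, had 7.27, 7.48 and 8.05 in micro ZnO livers, against 6.73, 6.81 and 7.03 in untreated livers (log2 change 0.71 ± 0.12, adjusted p = 0.00119). Cebpb, a transcription factor that acts with STAT3 at acute-phase promoters, changed by 0.51 ± 0.14 but lost its call in 8 of 12 fits that left out 1 array (0.45 to 0.53). Lifr, a receptor chain for LIF, changed by -0.55 ± 0.15 and lost its call in 7 of 12 (-0.58 to -0.42). Socs3, the feedback inhibitor of STAT3, changed by 0.23 ± 0.11 (adjusted p = 0.219), and Stat3 itself by 0.06 ± 0.14 (adjusted p = 0.858). Neutrophil markers were near background in both groups: 0 of 16 were called by limma (2 at an unadjusted p under 0.05), their summed intensity ran from 292 to 420 in micro ZnO and from 316 to 349 in untreated arrays, and Ly6g had 2.86, 3.01 and 3.09 in micro ZnO livers and 2.74, 2.89 and 3.01 in untreated livers. S100a8 and S100a9, abundant neutrophil genes, changed by 0.12 ± 0.30 and 0.13 ± 0.29.

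**Figure D2:**
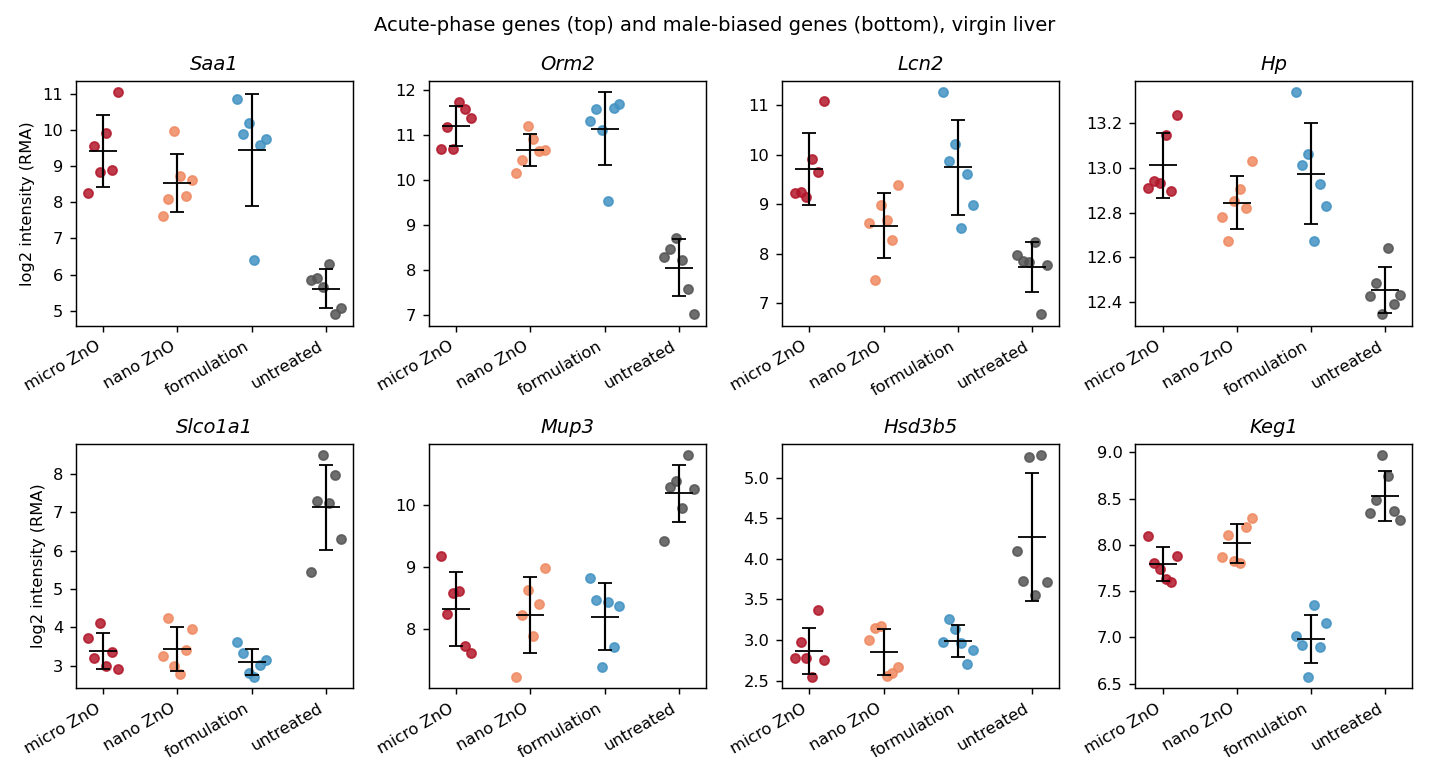
RMA log2 intensity of 4 acute-phase genes (top) and 4 male-biased genes (bottom) in each virgin liver of the 4 arms; points are arrays, the horizontal mark is the mean and bars are SD (n = 6). The 6 micro ZnO arrays lie above all untreated arrays for Saa1, Orm2, Lcn2 and Hp and below them for Slco1a1, Mup3, Hsd3b5 and Keg1.

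Among clock genes, Ciart, the period genes and Nr1d2 were higher in the micro ZnO livers and the activator Arntl was lower. Of 16 clock activators and repressors 5 rose and 1 fell, against 1.69% and 2.8% of all genes. Of 18 clock output genes 8 rose and 3 fell. The median log2 change was 0.19 for the first list and 0.50 for the second. Of the first list 3 rose without micro ZnO replicate 1, 2 or 4 or without untreated replicate 1, and of the second 5 rose without untreated replicate 5. Ciart, which represses CLOCK and ARNTL, had 6.29, 7.48 and 8.66 in micro ZnO livers, against 4.65, 4.86 and 5.37 in untreated livers, a log2 change of 2.59 ± 0.31 (6.04-fold, adjusted p = 2.06e-05). A second probe set of Ciart changed by 1.79 ± 0.29 (adjusted p = 0.000828). Per3, a period gene, had 5.29, 5.89 and 6.64 in micro ZnO livers, against 4.63, 4.81 and 4.97 in untreated livers, a log2 change of 1.14 ± 0.17 (adjusted p = 0.00035). All 6 micro ZnO arrays exceeded every untreated array for both genes. Per2 had 5.53, 6.39 and 6.56 in micro ZnO livers, against 5.23, 5.47 and 5.61 in untreated livers, a log2 change of 0.83 ± 0.19 (adjusted p = 0.015), with micro ZnO replicate 3 alone inside the untreated range. Per1 (0.92 ± 0.24) and the nuclear receptor Nr1d2 (0.81 ± 0.21) each lost their calls in 6 of 12 fits that left out 1 array, with changes of 0.77 to 0.92 and 0.68 to 0.77.

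On the activator side, Arntl, which encodes BMAL1, stood at 4.55, 5.82 and 6.35 in micro ZnO livers, against 6.82, 7.04 and 7.36 in untreated livers, a log2 change of -1.49 ± 0.26 (adjusted p = 0.00118). Every micro ZnO array lay below every untreated array. Its partner Clock had 6.36, 7.04 and 7.37 in micro ZnO livers and 7.20, 7.41 and 7.52 in untreated livers, a log2 change of -0.41 ± 0.12 that did not pass (adjusted p = 0.056). Not all repressors were higher. Nr1d1, which encodes REV-ERB alpha, ranged from 6.36 to 8.91 in micro ZnO and from 6.56 to 9.28 in untreated livers (log2 change -0.06 ± 0.48), and Cry1 and Cry2 changed by -0.28 ± 0.16 and 0.27 ± 0.10 without passing. Nr1d1 therefore overlapped almost wholly between the groups.

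Among the output genes the 3 PAR bZIP transcription factors, which bind D-box elements, rose together. Dbp had 6.72, 7.62 and 9.0 in micro ZnO livers, against 5.20, 6.16 and 6.45 in untreated livers, a log2 change of 1.78 ± 0.32 (3.44-fold, adjusted p = 0.00171). Tef had 7.24, 7.70 and 8.17 in micro ZnO livers, against 6.36, 6.49 and 6.72 in untreated livers, a log2 change of 1.18 ± 0.14 (adjusted p = 2.48e-05). Hlf changed by 0.46 ± 0.07 (adjusted p = 0.000557). Nfil3, which competes with them as a repressor at D-boxes, had 5.83, 6.32 and 6.97 in micro ZnO livers, against 7.33, 7.65 and 7.79 in untreated livers, a log2 change of -1.18 ± 0.22 (adjusted p = 0.00207). For all 4 factors the groups did not overlap. The deubiquitinase gene Usp2 changed by 1.70 ± 0.27 and the mitotic kinase gene Wee1 by 1.09 ± 0.22, while Elovl3, a fatty acid elongase, changed by -1.12 ± 0.20. Nampt, the rate-limiting enzyme of NAD salvage, changed by 0.79 ± 0.20 and lost its call without micro ZnO replicate 1 (0.75) or untreated replicate 5 (0.70). Alas1, the first enzyme of heme synthesis, ranged from 9.72 to 10.71 in micro ZnO and from 6.76 to 10.62 in untreated livers, and its change of 1.48 ± 0.42 lost its call in 8 of 12 fits. The time of day at which each liver was taken is not given in the labels, and its part in these differences was not tested.

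**Figure D3:**
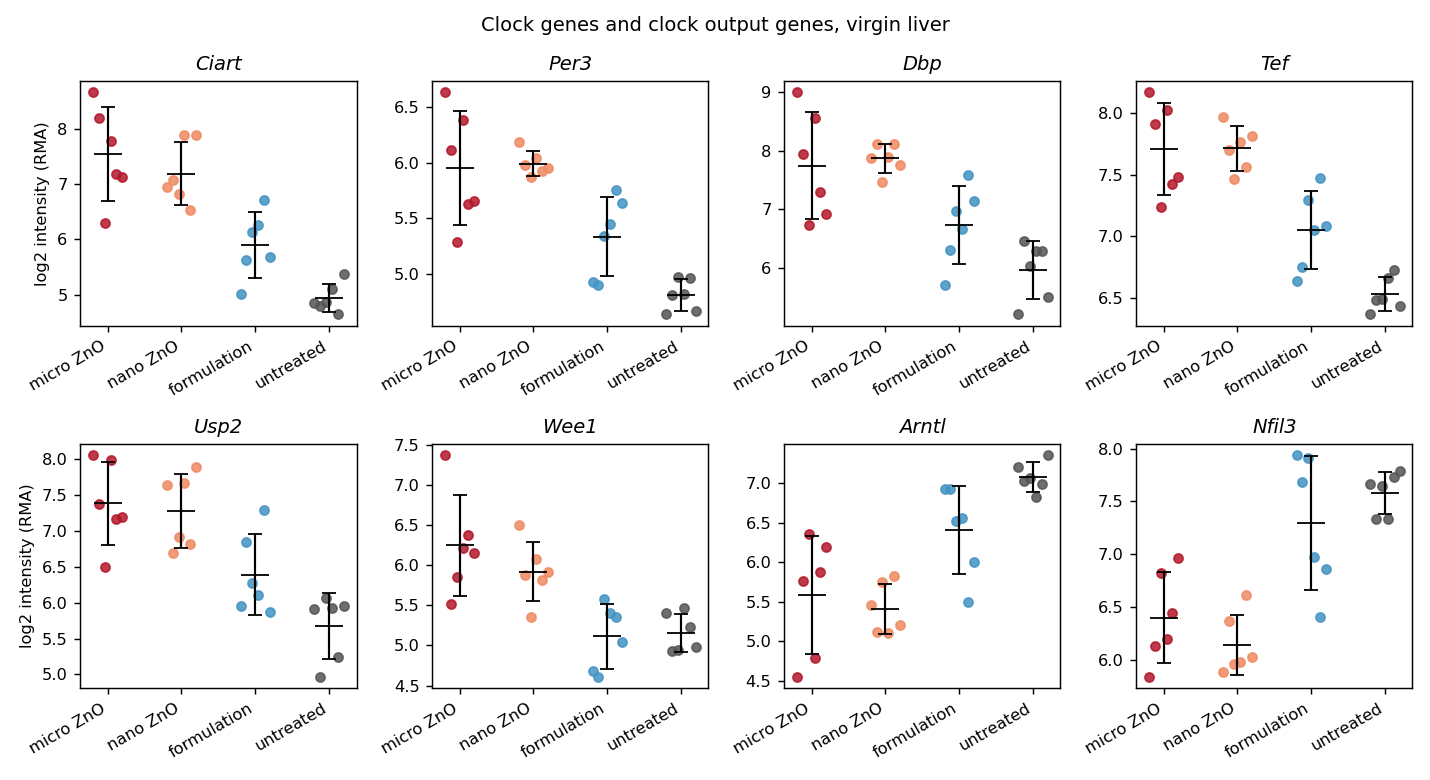
RMA log2 intensity of 8 clock and clock output genes in each virgin liver of the 4 arms; points are arrays, the horizontal mark is the mean and bars are SD (n = 6). Micro ZnO arrays lie above all untreated arrays for Ciart, Per3, Dbp, Tef, Usp2 and Wee1 and below them for Arntl and Nfil3, and formulation arrays overlap the micro ZnO range in each panel.

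The 250 bases before the gene start (RefSeq, GRCm38.p6) are shown for the 2 clock genes with the largest rises among activators and repressors, since both hold several copies of a clock motif; capitals mark the E-box CACGTG in Ciart (chr3:95882229-95882478, minus strand) and the D-box TTATGTAA in Per3 (chr4:151044666-151044915, minus strand), each searched on both strands.
Ciart: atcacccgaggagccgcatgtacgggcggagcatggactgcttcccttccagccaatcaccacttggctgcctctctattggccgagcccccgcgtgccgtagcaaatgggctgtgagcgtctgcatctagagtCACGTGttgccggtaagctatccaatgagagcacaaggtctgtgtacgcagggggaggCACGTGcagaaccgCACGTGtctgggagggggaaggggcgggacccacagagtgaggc
Per3: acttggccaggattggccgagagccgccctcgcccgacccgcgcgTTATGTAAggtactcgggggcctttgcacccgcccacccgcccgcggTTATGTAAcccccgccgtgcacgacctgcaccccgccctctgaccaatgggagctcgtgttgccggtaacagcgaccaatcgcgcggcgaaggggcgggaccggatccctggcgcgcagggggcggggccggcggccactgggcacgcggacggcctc
The 3 E-boxes of Ciart began 116, 58 and 44 bases before the start and the 2 D-boxes of Per3 began 205 and 158 bases before it, with no overlap between matches. An E-box was present in 4 of 20 promoters of clock activators and repressors (20%), in 3 of 17 promoters of clock output genes (17.6%) and in 6.02% of all 32851 promoters of this length. A D-box was present in 2 of 20 promoters of clock activators and repressors (10.0%), in 0 of 17 promoters of clock output genes and in 0.819% of all promoters. A match describes these letters and is neither a binding site nor a cause.

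Genes known to be higher in male than in female liver were lower in the micro ZnO livers. Of 29 measured members 15 fell and 0 rose, against 2.8% of all genes that fell, and the median log2 change was -0.51. Without untreated replicate 3, 11 of them fell. Slco1a1, an uptake transporter for organic anions and steroid conjugates, had the largest measured fall of all separated genes. It stood at 2.92, 3.29 and 4.12 in micro ZnO livers, against 5.46, 7.27 and 8.49 in untreated livers, a log2 change of -3.74 ± 0.34 (13.4-fold lower as measured, adjusted p = 3.23e-07). Mup3, a major urinary protein, had 7.60, 8.41 and 9.17 in micro ZnO livers, against 9.42, 10.28 and 10.82 in untreated livers, a log2 change of -1.87 ± 0.28 (adjusted p = 0.000424). Hsd3b5, a male-biased 3-ketosteroid reductase, had 2.54, 2.78 and 3.37 in micro ZnO livers, against 3.55, 3.91 and 5.28 in untreated livers, a log2 change of -1.41 ± 0.23 (adjusted p = 0.000938). All 3 genes were lower in every micro ZnO array than in any untreated array. Values near 3 are at the dim end of the array, and a filter that left out the dimmest 40% of probe sets removed Slco1a1 and Hsd3b5, so the sizes of these falls depend on signals not shown to be above background.

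Other male-biased genes fell by 1.09 ± 0.19 (Hsd3b2), 1.02 ± 0.21 (Mup21), 0.97 ± 0.19 (the peroxisomal CoA diphosphatase Nudt7), 0.74 ± 0.13 (Keg1) and 0.51 ± 0.11 (the glucuronosyltransferase Ugt2b1) on the log2 scale. These 5 calls held whichever array was left out. Cyp7b1, an oxysterol 7-alpha-hydroxylase, changed by -0.66 ± 0.16 and lost its call without untreated replicate 4 (-0.61), and the complement gene C6 changed by -0.55 ± 0.13 and lost it without untreated replicate 3 (-0.46). Mup, Saa, Orm, Hsd3b and Cyp4a genes belong to families of near-identical copies, so a probe set of 1 member may also read another.

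Female-biased genes did not form the mirror image. Of 34 measured members 5 rose and 3 fell, against 1.69% and 2.8% of all genes, with a median log2 change of 0.32. The number that rose was 3 without untreated replicate 5 and 9 without untreated replicate 4. Cyp17a1, the 17-alpha-hydroxylase of steroid synthesis, had 9.59, 10.28 and 11.03 in micro ZnO livers, against 8.45, 8.69 and 8.98 in untreated livers, a log2 change of 1.53 ± 0.18 (2.88-fold, adjusted p = 2.06e-05). Cyp39a1, an oxysterol 7-alpha-hydroxylase, had 7.67, 8.33 and 8.51 in micro ZnO livers, against 6.47, 6.59 and 7.14 in untreated livers, a log2 change of 1.46 ± 0.18 (adjusted p = 4.98e-05). The groups did not overlap for either gene. In contrast, the peroxisomal hydroxyacid oxidase Hao2 had 6.23, 6.89 and 7.28 in micro ZnO livers, against 7.79, 8.06 and 8.57 in untreated livers (log2 change -1.24 ± 0.21, adjusted p = 0.00119). The protease inhibitor Serpinb1a changed by -1.0 ± 0.16 and the neurotrophin receptor Ntrk2 by -0.77 ± 0.12, also without overlap. In the growth hormone and IGF axis 2 of 17 genes fell and 0 rose. Stat5b, the transcription factor that relays growth hormone, had 7.22, 7.41 and 7.52 in micro ZnO livers, against 7.70, 8.0 and 8.19 in untreated livers, a log2 change of -0.59 ± 0.11 (adjusted p = 0.00216). Igf1 changed by -0.28 ± 0.07 and lost its call without micro ZnO replicate 1 (-0.26), and the growth hormone receptor gene Ghr changed by -0.19 ± 0.08 without passing (adjusted p = 0.173).

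Zinc handling genes moved in both directions. Of 29 measured members 4 rose and 3 fell, against 1.69% and 2.8% of all genes. The list's median log2 change of 0.04 was close to the 0.02 of all genes. The metallothioneins, which buffer zinc and copper, were higher. Mt1 had 11.69, 11.88 and 12.51 in micro ZnO livers, against 9.61, 10.46 and 11.12 in untreated livers, a log2 change of 1.53 ± 0.19 (2.89-fold, adjusted p = 4.98e-05). Mt2 had 11.91, 12.11 and 12.99 in micro ZnO livers, against 9.10, 10.41 and 11.49 in untreated livers, a log2 change of 1.80 ± 0.28 (3.49-fold, adjusted p = 0.000557). Both genes were higher in each micro ZnO liver than in any untreated liver. Slc30a1, the plasma membrane zinc exporter ZnT1 and an MTF1 target, had 7.60, 7.89 and 8.32 in micro ZnO livers, against 7.25, 7.44 and 7.59 in untreated livers, a log2 change of 0.47 ± 0.11 (adjusted p = 0.0109), and its lowest micro ZnO array was just above the highest untreated one. Mtf1 itself changed by 0.05 ± 0.09 (adjusted p = 0.818).

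Slc39a4, the zinc importer ZIP4, had the smallest adjusted p of all probe sets. It stood at 6.34, 6.81 and 6.90 in micro ZnO livers, against 7.75, 7.98 and 8.22 in untreated livers, a log2 change of -1.30 ± 0.10 (2.45-fold lower, adjusted p = 1.51e-08). The gap between the groups was wider than the spread within either of them. The ZIP family member Slc39a11 changed by -0.25 ± 0.06 (adjusted p = 0.0174) without overlap. Slc39a14, the importer ZIP14, which rises in inflammation, changed by 0.52 ± 0.15, but its call was lost in 9 of 12 fits that left out 1 array (0.48 to 0.56). Slc30a10, a manganese exporter of the same family as ZnT1, changed by -0.66 ± 0.18 and lost its call in 6 of 12 (-0.67 to -0.51).

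The promoters of the 3 zinc-responsive genes that rose are shown because the metal response element, the motif bound by MTF1, can be read in each; capitals mark TGCACNC or TGCGCNC on either strand in the 250 bases before the gene start (RefSeq, GRCm38.p6) of Mt2 (chr8:94172368-94172617, plus strand), Mt1 (chr8:94178839-94179088, plus strand) and Slc30a1 (chr1:191906531-191906780, plus strand).
Mt2: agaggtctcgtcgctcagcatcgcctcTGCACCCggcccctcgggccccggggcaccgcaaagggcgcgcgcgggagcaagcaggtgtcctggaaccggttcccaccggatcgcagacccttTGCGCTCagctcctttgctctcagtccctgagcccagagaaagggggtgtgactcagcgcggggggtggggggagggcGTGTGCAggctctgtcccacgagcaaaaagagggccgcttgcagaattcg
Mt1: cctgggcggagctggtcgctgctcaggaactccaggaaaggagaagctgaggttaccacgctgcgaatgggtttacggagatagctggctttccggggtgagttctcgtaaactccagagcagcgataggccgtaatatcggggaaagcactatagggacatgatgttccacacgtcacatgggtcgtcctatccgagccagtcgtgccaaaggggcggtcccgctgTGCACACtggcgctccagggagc
Slc30a1: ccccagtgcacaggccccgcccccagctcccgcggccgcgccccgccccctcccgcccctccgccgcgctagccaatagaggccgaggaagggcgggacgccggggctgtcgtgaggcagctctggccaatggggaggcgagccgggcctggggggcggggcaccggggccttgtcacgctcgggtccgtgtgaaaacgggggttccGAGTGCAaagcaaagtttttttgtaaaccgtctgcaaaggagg
Mt2 held 3 matches, beginning 223, 128 and 50 bases before the start, Mt1 held 1 at 23 bases and Slc30a1 held 1 at 43 bases, with no overlap between matches. Bases outside these windows were not searched, so any element after the annotated start is not counted. The motif is short and common: it was present in 14 of 30 promoters of zinc handling genes (46.7%), in 21.4% of all 32851 promoters and in 10 of 20 promoters of clock activators and repressors (50.0%). A match describes these letters only.

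The metallothioneins also respond to glucocorticoids. Of 25 glucocorticoid-responsive genes 5 rose and 0 fell (median log2 change 0.33), against 1.69% and 2.8% of all genes. The 5 were Mt1, Mt2, Lcn2, Per1 and Fkbp5, of which the first 4 also stand in other lists. Fkbp5, a co-chaperone that restrains the glucocorticoid receptor, had 7.81, 8.22 and 8.86 in micro ZnO livers, against 6.69, 7.17 and 7.43 in untreated livers, a log2 change of 1.15 ± 0.22 (adjusted p = 0.0025). Tsc22d3, the glucocorticoid-induced leucine zipper, changed by 0.59 ± 0.19 without passing (adjusted p = 0.0692). The groups did not overlap for Fkbp5, whereas 1 micro ZnO array lay in the untreated range for Tsc22d3.

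Of 22 glucose and glycogen genes 1 was higher and 3 were lower, against 1.69% and 2.8% of all genes, and 1 was lower when micro ZnO replicate 4, micro ZnO replicate 5 or untreated replicate 1 was omitted. Ppp1r3c, which targets protein phosphatase 1 to glycogen, had 5.31, 6.47 and 6.74 in micro ZnO livers, against 7.29, 7.71 and 8.48 in untreated livers, a log2 change of -1.59 ± 0.36 (3.02-fold lower, adjusted p = 0.0108), with no overlap. G6pc, the glucose-6-phosphatase catalytic subunit, changed by -0.98 ± 0.24 and lost its call without micro ZnO replicate 4 (-0.90), micro ZnO replicate 5 (-0.83) or untreated replicate 1 (-0.90). Its transporter Slc37a4 moved the other way, with a log2 change of 0.52 ± 0.11 (adjusted p = 0.00596). Pck1, the gluconeogenic PEP carboxykinase, changed by 0.28 ± 0.22 (adjusted p = 0.507).

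In lipid metabolism, 6 of 20 genes of cholesterol synthesis and uptake rose and 0 fell, against 1.69% and 2.8% of all genes, with a median log2 change of 0.29, but 2 rose without micro ZnO replicate 1, and 3 when either micro ZnO replicate 5 or untreated replicate 3 was omitted or the interquartile range was a covariate. Msmo1, a C4-demethylating sterol oxidase, had 11.56, 11.73 and 12.01 in micro ZnO livers, against 10.75, 10.89 and 11.14 in untreated livers, a log2 change of 0.83 ± 0.13 (1.78-fold, adjusted p = 0.000696). Sqle, squalene epoxidase, had 9.27, 9.47 and 9.78 in micro ZnO livers, against 8.41, 8.68 and 9.06 in untreated livers, a log2 change of 0.81 ± 0.16 (adjusted p = 0.00536). Both genes were separated between the groups and kept their calls in every fit that left out 1 array. Idi1, the isopentenyl diphosphate isomerase, changed by 0.61 ± 0.15 and lost its call without micro ZnO replicate 1 (0.59), micro ZnO replicate 5 (0.54) or untreated replicate 3 (0.54). Fdft1, squalene synthase, changed by 0.44 ± 0.12 and lost its call in 10 of 12 such fits (0.38 to 0.46). Another probe set of Fdft1 changed by 0.46 ± 0.14 and was not called (adjusted p = 0.0563).

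Of 43 PPARA targets and genes of fatty acid oxidation 5 rose and 1 fell, against 1.69% and 2.8% of all genes. The median log2 change of the list was 0.06, and 2 rose without micro ZnO replicate 1 or without untreated replicate 3 or 5. Cyp4a14, a fatty acid omega-hydroxylase and a strong PPARA target, had 8.91, 9.60 and 10.39 in micro ZnO livers, against 6.27, 7.31 and 8.72 in untreated livers, a log2 change of 2.34 ± 0.41 (5.06-fold, adjusted p = 0.00125). Its neighbour in the family, Cyp4a31, changed by 0.90 ± 0.21 (adjusted p = 0.016), and Cyp4a10 by 0.57 ± 0.19 without passing (adjusted p = 0.0852). Cpt1a, which admits long-chain fatty acids to mitochondria, changed by 0.35 ± 0.14 (adjusted p = 0.146). Of 24 genes of fatty acid synthesis 2 rose and 3 fell. The 3 were the elongase Elovl5 (-0.56 ± 0.11), the phospholipid transfer protein Pltp (-0.52 ± 0.11) and Insig2, which retains the SREBP complex in the endoplasmic reticulum (-0.72 ± 0.17). Fatty acid synthase, Fasn, changed by 0.22 ± 0.26 (adjusted p = 0.658). Of 28 genes of bile acid synthesis and FXR signalling 2 rose and 4 fell. The apical bile acid transporter Slc10a2 had 4.18, 4.42 and 4.76 in micro ZnO livers, against 5.15, 5.68 and 6.38 in untreated livers, a log2 change of -1.22 ± 0.24 (adjusted p = 0.00442). Hsd3b7, an enzyme of bile acid synthesis, changed by -0.60 ± 0.10 and Akr1c6, a hydroxysteroid dehydrogenase, by -0.47 ± 0.08, while Cyp7a1, the rate-limiting enzyme, changed by 0.61 ± 0.24 without passing (adjusted p = 0.134).

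Detoxification genes were called in both directions. Of 40 genes of cytochrome P450 families 1 to 3 and their regulators 3 rose and 4 fell, against 1.69% and 2.8% of all genes. In fits that left out 1 array these list counts ranged from 1 to 3 and from 2 to 4. Nr1i3, which encodes the xenobiotic receptor CAR, had 9.31, 9.53 and 9.93 in micro ZnO livers, against 8.53, 8.96 and 9.12 in untreated livers, a log2 change of 0.66 ± 0.12 (adjusted p = 0.00229). Cyp2c67 changed by -0.91 ± 0.16 and Cyp2c55 by -0.83 ± 0.18, and all 3 genes were separated between the groups. Of 35 glutathione and NRF2 antioxidant genes 0 rose and 4 fell, with a median log2 change of -0.17, and 7 fell without untreated replicate 2. Gclc, which encodes the catalytic subunit of glutamate-cysteine ligase, had 9.28, 9.5 and 9.59 in micro ZnO livers, against 10.21, 10.23 and 10.42 in untreated livers, a log2 change of -0.82 ± 0.12 (1.76-fold lower, adjusted p = 0.000307). The glutathione transferase gene Gstm6 changed by -0.75 ± 0.13 and the carboxylesterase gene Ces2g by -0.49 ± 0.10. Complement and coagulation genes were called 4 higher and 4 lower of 45 (2 lower without untreated replicate 3 or 5), the complement genes C4a (0.51 ± 0.09) and C4b (0.42 ± 0.08) and the kininogen gene Kng2 (0.32 ± 0.07) among the higher. These 45 also hold Olfr48 in place of C3. In iron and heme handling 4 of 28 rose (2 in 7 of 12 fits that left out 1 array) and 1 fell, the ferrireductase gene Steap3 (-0.49 ± 0.08, adjusted p = 0.00112).

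Several other genes were among the 20 largest separated falls. Rnf125, an E3 ubiquitin ligase gene, had 8.23, 8.62 and 8.91 in micro ZnO livers, against 9.65, 10.00 and 10.44 in untreated livers, a log2 change of -1.46 ± 0.19 (2.74-fold lower, adjusted p = 4.98e-05). Ces3a, a carboxylesterase gene, had 10.08, 10.71 and 10.86 in micro ZnO livers, against 11.27, 11.70 and 12.18 in untreated livers, a log2 change of -1.14 ± 0.15 (adjusted p = 0.000106). Clpx, the unfoldase of a mitochondrial protease, had 7.47, 8.30 and 9.06 in micro ZnO livers, against 9.43, 9.60 and 10.09 in untreated livers, a log2 change of -1.41 ± 0.23 (adjusted p = 0.000837). The groups were apart for each. The others were the aquaporin gene Aqp8 (-1.45 ± 0.29), the tubulin gene Tubb2a (-1.38 ± 0.30), the succinate receptor gene Sucnr1 (-1.30 ± 0.22), the neprilysin gene Mme (-1.03 ± 0.19) and Denn2b (-1.0 ± 0.16). Among the 20 largest separated rises outside the groups above were St3gal5, the GM3 synthase gene (1.06 ± 0.20), Nrg4, a ligand of ERBB4 (1.00 ± 0.20), Chil1, a chitinase-like glycoprotein gene (0.83 ± 0.19), and the small nucleolar RNA Snord14e (1.01 ± 0.21).

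Markers of cells other than hepatocytes were lower where they were called. In bulk liver, fewer cells of a type and less RNA per cell cannot be told apart. Of 23 endothelial markers 10 fell and 0 rose, against 2.8% and 1.69% of all genes, with a median log2 change of -0.29. In fits that left out 1 array 4 to 11 fell, with 4 without untreated replicate 1 and 5 without micro ZnO replicate 1 or untreated replicate 3 or 5. With the interquartile range as a covariate 4 fell. Their summed intensity ran from 1900 to 2293 in micro ZnO arrays and from 2395 to 2863 in untreated arrays, without overlap. In formulation arrays it ran from 1716 to 2369, which also lay below the untreated arrays and overlapped micro ZnO. Cdh5, the VE-cadherin gene, had 5.75, 6.04 and 6.27 in micro ZnO livers, against 6.29, 6.55 and 6.77 in untreated livers, a log2 change of -0.56 ± 0.10 (adjusted p = 0.00125). The liver gene Oit3 (-0.51 ± 0.09), the water channel gene Aqp1 (-0.47 ± 0.10) and the angiopoietin receptor gene Tek (-0.44 ± 0.09) were also separated. Of 16 stellate cell and fibroblast markers 4 fell, among them Reln (-0.48 ± 0.09), Ecm1 (-0.37 ± 0.08) and Lrat, which makes retinyl esters (-0.41 ± 0.10). Their summed intensity ran from 1866 to 2074 in micro ZnO, from 1901 to 2357 in formulation and from 2129 to 2651 in untreated arrays. Of 20 Kupffer cell and macrophage markers 1 fell, Cd68 (-0.53 ± 0.11, adjusted p = 0.00864), with a median log2 change of -0.25 and overlapping sums of 2283 to 2912 in micro ZnO and 2523 to 3355 in untreated arrays. The Kupffer cell marker Clec4f changed by -0.23 ± 0.12 (adjusted p = 0.249).

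The next lists had 0 or 1 call each, where 4.49% of all genes were called and 2.8% fell, so single calls say little about a list. Of 5 erythroid markers 1 fell, Alas2 (-0.94 ± 0.17, adjusted p = 0.00177). Pancreatic acinar and adipocyte markers were called at 1 of 14, Car3 (-0.91 ± 0.23), which hepatocytes also express and which lost its call without untreated replicate 5 (-0.80). The summed intensity of that list ran from 3314 to 5945 in micro ZnO and from 5995 to 11670 in untreated arrays, without overlap. Car3 is part of this sum, so the sum alone does not describe pancreatic or fat tissue. No cholangiocyte marker (0 of 8) and no T, B or NK cell marker (0 of 19) was called by limma, with 3 and 2 at an unadjusted p under 0.05. Of 11 hepatocyte markers 1 was called, Fabp1, a fatty acid binding protein, at -0.58 ± 0.17, and that call was lost in 8 of 12 fits that left out 1 array (-0.59 to -0.46). The summed hepatocyte marker intensity ran from 70126 to 74883 in micro ZnO and from 69134 to 73885 in untreated arrays. The part of these cell markers in the changes of the gene groups above was not tested.

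Other groups had between 0 and 4 calls each, against 4.49% of all genes. None of 20 heat shock chaperone genes and none of 44 respiratory chain and ATP synthase genes was called (0 in each by limma, 4 and 6 at an unadjusted p under 0.05, with median log2 changes of -0.02 and -0.08). The other settings run gave at most 4 calls among the chaperone genes and at most 1 among the respiratory chain genes. Ribosome biogenesis had 1 call of 39 and urea cycle and amino acid catabolism 2 of 41. Of 37 cell cycle genes 2 rose, among them the thymidine kinase gene Tk1 (0.32 ± 0.08, adjusted p = 0.0162). Another probe set of Tk1 changed by 0.17 ± 0.08 and was not called (adjusted p = 0.227). The unfolded protein response had 3 falls of 30, and this count ranged from 0 to 6 in the fits that left out 1 array. Of 32 interferon-stimulated genes 4 fell and 0 rose, and this count was 0 without untreated replicate 1. Among these the transcription factor gene Irf7 changed by -0.45 ± 0.12 and the RNA sensor gene Ifih1 by -0.34 ± 0.08.

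The formulation-only arm asks which of these differences set micro ZnO apart from the sunscreen base. Micro ZnO livers differed from formulation livers at 1599 of 23410 probe sets (6.83%), with 1203 higher and 396 lower. With each array's interquartile range as a covariate 214 were called, 103 higher and 111 lower, so the excess of higher calls was absent in that fit. Without the covariate they differed at 1295 genes (6.5%), of which 1017 were higher (5.1%) and 278 lower (1.39%). The 2 groups did not overlap at 695 genes (3.49%). The micro ZnO arrays are shared with the comparison to untreated mice. No acute-phase gene of 32 was called against the formulation (0 by limma, 3 at an unadjusted p under 0.05, median log2 change 0.01). Saa1 stood at 8.26, 9.23 and 11.05 in micro ZnO livers and at 6.41, 9.83 and 10.86 in formulation livers, a log2 change of -0.03 with a 95% interval of -1.10 to 1.05. Orm2 stood at 9.53, 11.45 and 11.68 in formulation livers, and micro ZnO minus formulation was 0.07 (-0.54 to 0.68). Formulation replicate 4 was the low array for both genes, and the other 5 lay within the micro ZnO range.

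Immediate early genes were lower in micro ZnO than in formulation livers. Of 33 measured members 15 fell and 0 rose, against 1.39% of all genes that were lower, with a median log2 change of -0.43, and 7 fell with the interquartile range as a covariate, where Egr1 and Dusp1 lost their calls. Against untreated livers only 1 member rose and 1 fell, where 1.69% and 2.8% of all genes did. They were Gadd45g (0.93 ± 0.26) and Btg1 (-0.45 ± 0.11), calls lost in 10 and 4 of the 12 leave-one-out fits, at 0.79 to 0.95 and at -0.44 to -0.40. Jun, a subunit of AP-1, had 5.82, 6.66 and 7.41 in micro ZnO livers, against 8.44, 8.92 and 9.27 in formulation livers, a log2 change of -2.28 ± 0.29 (adjusted p = 7.91e-05). Fos, its partner, had 4.86, 5.70 and 6.01 in micro ZnO livers, against 5.91, 7.71 and 8.45 in formulation livers, a log2 change of -2.0 ± 0.31 (adjusted p = 0.000567). The stress-induced factor Atf3 had 5.14, 5.38 and 5.87 in micro ZnO livers, against 6.68, 7.56 and 7.75 in formulation livers, a log2 change of -1.95 ± 0.24 (adjusted p = 7.91e-05). Jun and Atf3 did not overlap between these groups, and for Fos 1 formulation array entered the micro ZnO range. Untreated livers stood at 5.75, 6.07 and 6.70 for Jun, at 4.89, 5.55 and 5.82 for Fos and at 4.65, 5.06 and 5.48 for Atf3, and micro ZnO minus untreated was not called for any of them (0.51 ± 0.29, 0.15 ± 0.31 and 0.41 ± 0.24). Lower than in formulation livers were also Egr1 (-2.16 ± 0.41), Btg2 (-2.02 ± 0.25), Ier2 (-1.54 ± 0.24), Nr4a1 (-1.52 ± 0.19) and the phosphatase gene Dusp1 (-1.22 ± 0.30).

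The largest fall against the formulation was outside that list. Igfbp1, an IGF binding protein that rises with fasting and stress, had 7.65, 7.91 and 9.11 in micro ZnO livers, against 9.96, 10.87 and 11.74 in formulation livers, a log2 change of -2.66 ± 0.33 (adjusted p = 7.91e-05), and against untreated livers it changed by -0.48 ± 0.33 (adjusted p = 0.419). Ppp1r3g, another glycogen-targeting subunit, changed by -1.57 ± 0.33. Pdk4, the kinase that inhibits pyruvate dehydrogenase, changed by -1.53 ± 0.47, a call lost in 9 of 12 fits that left out 1 array (-1.68 to -1.44). Formulation replicate 3 stood at 9.84 for Pdk4 and the other 5 formulation arrays between 5.39 and 6.2, and without that array the change was -0.86 and still called (adjusted p = 0.0285). Higher than in formulation livers were 15 of 43 PPARA targets and genes of fatty acid oxidation, with 1 lower. Among all genes 5.1% were higher and 1.39% lower. The median log2 change of the list was 0.20, and 10 members were higher with the interquartile range as a covariate. Cyp4a14 had 6.97, 7.81 and 8.56 in formulation livers, and the micro ZnO change was 1.88 ± 0.41 (adjusted p = 0.00687). The acyl-CoA thioesterase gene Acot3 changed by 1.49 ± 0.23 and Cyp4a31 by 1.24 ± 0.21, both with no overlap. Of 29 UGT, GST and sulfotransferase genes 12 were higher than in formulation livers and 0 lower (3 higher with that covariate). Against untreated livers 1 of them rose and 4 fell, where 1.69% and 2.8% of all genes did.

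Part of the clock difference was also present against the formulation. Of clock activators and repressors 3 of 16 were higher (1 in 5 of 12 fits that left out 1 array) and 0 lower. Of clock output genes 6 of 18 were higher and 1 lower, against 5.1% and 1.39% of all genes. With the interquartile range as a covariate 1 of the first list and 2 of the second were higher. Ciart had 5.01, 5.91 and 6.71 in formulation livers, and micro ZnO minus formulation was 1.63 ± 0.31 (adjusted p = 0.0031). Tef changed by 0.66 ± 0.14, Wee1 by 1.14 ± 0.22 and Nfil3 by -0.90 ± 0.22. Per3 changed by 0.62 ± 0.17 and lost its call in 5 of 12 fits that left out 1 array (0.48 to 0.59). Arntl (-0.82 ± 0.26, adjusted p = 0.0504) and Dbp (1.01 ± 0.32, adjusted p = 0.0533) did not pass. Male-biased genes, which were lower than in untreated livers, included 5 of 29 that were higher than in formulation livers (2 with that covariate) and 0 that were lower. Slco1a1 stood at 2.71, 3.09 and 3.63 in formulation livers, and micro ZnO minus formulation was 0.28 (-0.43 to 0.98), whereas Hsd3b2 was higher in micro ZnO livers by 0.82 ± 0.19 (adjusted p = 0.0114).

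Of the 4 zinc genes drawn in the plot by arm, Slc30a1 alone was called against the formulation. Mt1 had 11.58, 12.11 and 12.65 and Mt2 had 11.84, 12.37 and 13.10 in formulation livers, and micro ZnO minus formulation was -0.18 (-0.58 to 0.22) for Mt1 and -0.17 (-0.74 to 0.40) for Mt2. Slc39a4 had 6.76, 7.02 and 7.08 in formulation livers, and its change of -0.26 ± 0.10 did not pass (adjusted p = 0.117). Slc30a1 had 7.28, 7.46 and 7.94 in formulation livers and was higher in micro ZnO livers by 0.36 ± 0.11 (adjusted p = 0.0394), a call lost in 9 of 12 fits that left out 1 array (0.28 to 0.38). Of the zinc list 3 of 29 were higher than in formulation livers and 0 lower, against 5.1% and 1.39% of all genes. Only 1 was higher without micro ZnO replicate 2 or 4 or formulation replicate 6, and 0 with the interquartile range as a covariate.

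**Figure D4:**
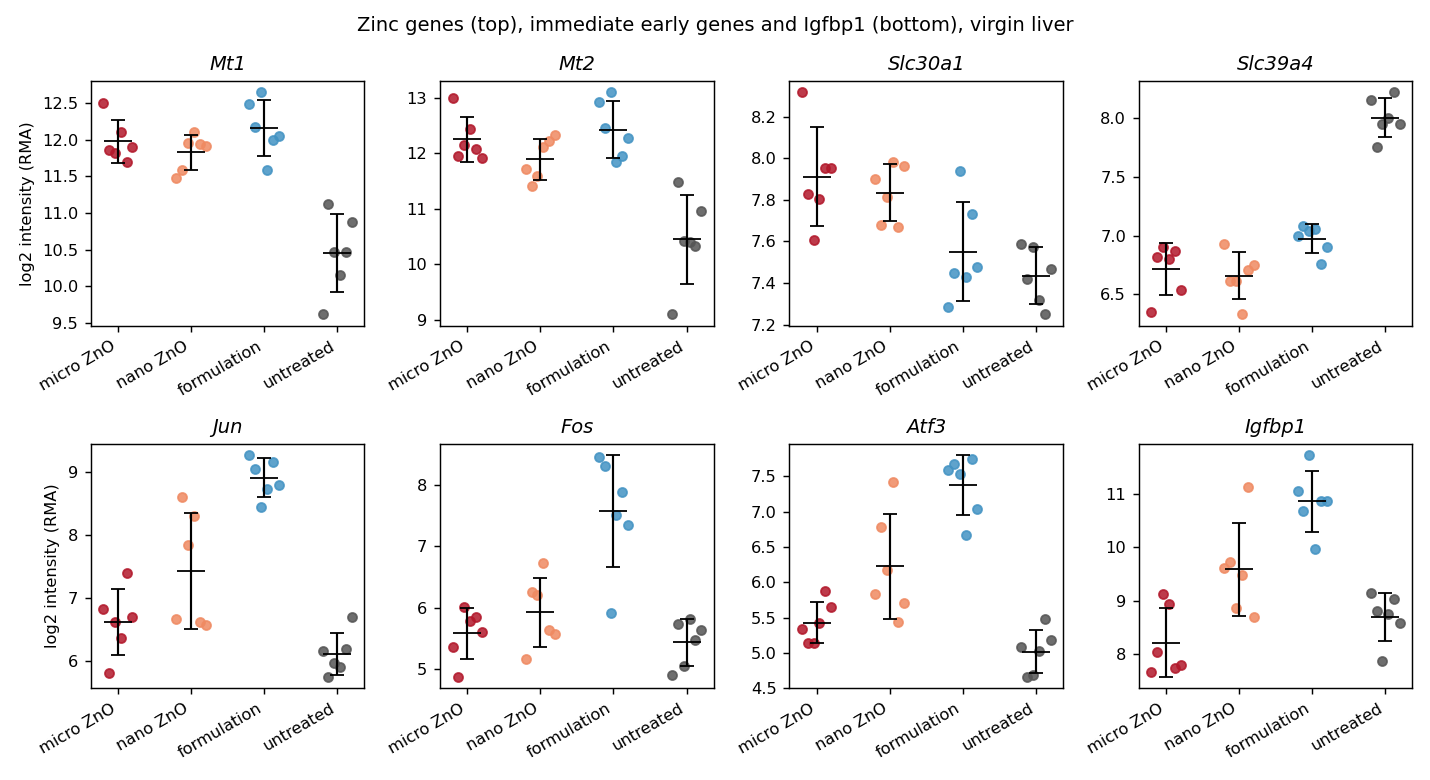
RMA log2 intensity of 4 zinc genes (top) and of 3 immediate early genes and Igfbp1 (bottom) in each virgin liver of the 4 arms; points are arrays, the horizontal mark is the mean and bars are SD (n = 6). Mt1, Mt2 and Slc39a4 overlap among the 3 sunscreen arms. Mt1 and Slc39a4 lie apart from untreated in each of them, and for Mt2 the lowest nano ZnO array (11.42) is below the highest untreated array (11.49). Jun, Fos, Atf3 and Igfbp1 have their highest mean in formulation livers, and for each of them at least 1 nano ZnO array lies within the formulation range.

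Particle size gave no called difference. Micro ZnO against nano ZnO livers had 0 of 23410 probe sets called by limma (0%), a smallest adjusted p of 0.961 and 1106 probe sets at an unadjusted p under 0.05 (4.72%). The 3 genes with the smallest p were Cyp2d40, a P450 gene (0.55, 95% interval 0.30 to 0.80), Psrc1, a spindle protein gene (-0.34, -0.50 to -0.18), and Olfr920, an olfactory receptor gene (-0.32, -0.47 to -0.17), each with an adjusted p of 0.961. For several genes described above the interval included 0: Saa1 differed by 0.89 (-0.19 to 1.96), Mt1 by 0.15 (-0.25 to 0.55), Slc39a4 by 0.05 (-0.15 to 0.26), Ciart by 0.35 (-0.28 to 0.97) and Slco1a1 by -0.06 (-0.77 to 0.65). Lcn2 stood at 9.14, 9.45 and 11.09 in micro ZnO livers and at 7.47, 8.65 and 9.38 in nano ZnO livers, a difference of 1.14 (0.39 to 1.90) with an adjusted p of 0.993. Unadjusted intervals also lay below 0 for Igfbp1 (-1.38, -2.06 to -0.70, adjusted p = 0.961) and for the immediate early genes Dusp1 (-1.04, -1.66 to -0.42), Jun (-0.81, -1.41 to -0.21), Btg2 (-0.80, -1.32 to -0.29) and Atf3 (-0.80, -1.30 to -0.30), these 4 with an adjusted p of 0.993. The same held for Egr1 (-0.90), Ier2 (-0.66), Nr4a1 (-0.57) and Ppp1r3g (-0.82). The interval for Fos was -0.98 to 0.28.

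Pregnant mice formed an experiment of their own, so pregnancy and experiment cannot be told apart in what follows. Untreated livers were also less alike there. Their clock score had an SD of 0.72 (n = 5), against 0.14 in virgin untreated livers (n = 6). The part of this spread in the counts below was not tested. In the pregnant experiment alone, micro ZnO livers differed from untreated livers at 25 of 23410 probe sets (0.107%) and 18 genes (0.0903%). The response of pregnant minus that of virgin mice was called at 11 probe sets (0.047%) and 10 genes (0.0502%), 8 with a higher (0.0401%) and 2 with a lower response (0.01%) in pregnant mice, in a model over all 46 arrays. Serpinb1a changed by 0.42 ± 0.17 in pregnant and -1.0 ± 0.16 in virgin mice, a difference of 1.42 ± 0.24 (adjusted p = 0.00444). Slc39a4 changed by -0.27 ± 0.13 in pregnant and -1.30 ± 0.10 in virgin mice, a difference of 1.03 ± 0.16 (adjusted p = 0.00308). Its pregnant micro ZnO values were 6.26, 6.27, 6.60, 6.15 and 6.29, against 6.85, 6.27, 6.51, 7.0 and 6.27 in pregnant untreated livers, so these groups overlapped. Ntrk2 changed by 0.09 ± 0.08 in pregnant and -0.77 ± 0.12 in virgin mice, a difference of 0.85 ± 0.15 (adjusted p = 0.00567). The pregnant values of Ntrk2, 3.42 to 3.50 with micro ZnO and 3.31 to 3.52 untreated, were at the dim end of the array, where a fall as in virgin mice may not be measurable. These 3 calls held in every fit that left out 1 array and without pregnant micro ZnO replicates 3 and 4.

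Saa3 had the largest difference, 3.92 ± 0.81 (adjusted p = 0.0343). Its log2 values were 9.25, 9.43, 12.47, 12.96 and 8.45 in pregnant micro ZnO livers, against 5.21, 5.39, 4.86, 5.07 and 5.26 in pregnant untreated livers. Replicates 3 and 4 of the pregnant micro ZnO group stood far above the other 3, and without both the difference was 2.45 and not called. Cyp4a14 had a difference of -2.37 ± 0.48 (adjusted p = 0.0265), but its pregnant values were 2.90, 3.12, 2.86, 3.06 and 2.98 with micro ZnO and 2.86, 3.08, 3.24, 3.22 and 2.70 untreated, at the dim end of the array in both groups. Its call was lost in 11 of the fits that left out 1 array (-2.41 to -2.17). The interaction of Saa1 was 0.65 ± 0.73 and of Orm2 0.01 ± 0.39, neither of them called. For Mt1 it was -1.02 ± 0.25 (adjusted p = 0.129) and for Slco1a1 1.52 ± 0.70 (adjusted p = 0.624). Other genes called were Ly6e (1.06 ± 0.19), Rac2 (1.04 ± 0.21), Cxcl16 (0.89 ± 0.19), Lcp1 (0.69 ± 0.14) and Nim1k (-0.61 ± 0.11); without pregnant micro ZnO replicates 3 and 4 these 5 were no longer called, at 0.79, 0.63, 0.56, 0.49 and -0.58.

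**Figure D5:**
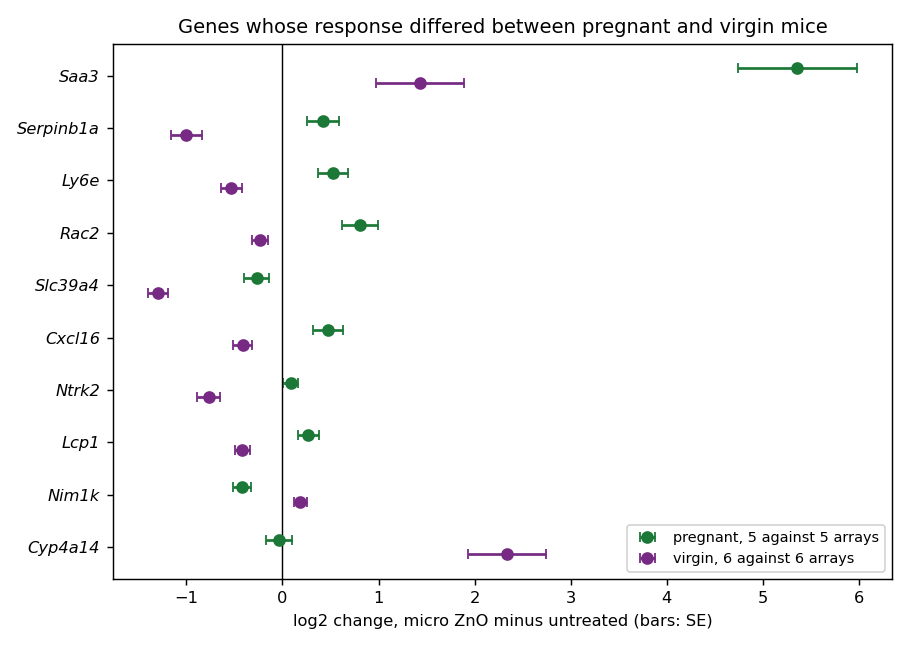
Log2 change, micro ZnO minus untreated, in pregnant (upper point of each pair) and virgin (lower point) livers for the 10 genes whose response differed (interaction adjusted p under 0.05); bars are SE. Serpinb1a and Ntrk2 lie below 0 in virgin mice alone, Slc39a4 lies further below 0 in virgin than in pregnant mice, and Saa3 has its larger value in pregnant mice.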

How the data were processed

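Liver RNA of 46 mice in 8 groups was hybridised to Affymetrix whole-transcript arrays, each mouse having an array of its own. The deposited values are log2 intensities made by the authors with RMA (background correction, quantile normalization and probe summarization), per the submitters' processing notes; its version is not given in the sources used here. Quantile normalization removes differences in overall signal between arrays, so changes are relative. The values carry no detection calls, and precision is limited by how many arrays each group has. The pregnant and virgin arrays had different medians (4.00 in pregnant untreated, 4.71 in virgin untreated), so levels are compared within an experiment.

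Of 35512 probe sets, 21789 had 1 gene symbol, 1621 several and 12102 none in the platform annotation. The 23410 with a symbol were tested, and 21698 matched a RefSeq gene table (GRCm38.p6) by Entrez identifier with 0 symbols changed. Genes were named from probe sets with 1 symbol, using the brightest of several. limma 3.58.1 in R 4.3.3 fitted 4 arm means to the 24 virgin arrays, and 8 group means to all 46 arrays for the interaction. Tests were two-sided with Benjamini-Hochberg adjustment over the 23410 probe sets, and array medians were compared by exact permutation. Tested on simulated data of the same size (23410 probe sets, micro ZnO against untreated), the fit found 88 of 100 changes of 1.5-fold and 98 of 100 of 2-fold with 8 false calls. The simulated errors were independent between probe sets and lacked differences that whole arrays share. These rates therefore need not hold for the real arrays.

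The 37 gene lists (962 of 1065 genes measured; the rest not analysed here), comparisons, alternatives and named genes were chosen with earlier results of these data known. Among called genes without overlap, the 20 that rose most and the 20 that fell most were named, together with 7 zinc genes, up to 6 members of a list by p, and up to 10 genes each way of the other comparisons; genes named beyond these were chosen after their values were seen. Lists share members.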

Additional observations from a re-analysis of the deposited data

Results flagged for a closer look

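In 363 groups of arrays examined for 155 genes, 18 single arrays stood further from the rest of their group than Dixon's test allows at 95%. Chance flags about 1 in 20 groups, so this count is near what chance alone would give. Among micro ZnO livers, replicate 3 was low for Per2 (5.53, others 6.23 to 6.56) and Nampt (6.81, others 7.52 to 7.83), and replicate 2 was high for C6 (5.73, others 5.12 to 5.26). Replicate 1 was high for Ppp1r3g (6.9, others 5.72 to 6.1), replicate 5 was low for Slc37a4 (10.13, others 10.47 to 10.67) and replicate 6 was low for Alas2 (5.37, others 6.16 to 6.52). Among formulation livers, replicate 3 was high for Ppp1r3g (9.64, others 6.97 to 7.66) and Pdk4 (9.84, others 5.39 to 6.2), and replicate 4 was low for Saa1 (6.41, others 9.58 to 10.86) and Orm2 (9.53, others 11.11 to 11.68). Among untreated livers, replicate 6 was high for Ier2 (6.37), Gadd45g (7.57) and Pltp (8.35) and low for Nrg4 (4.86). Replicate 5 was low for Lcn2 (6.77) and St3gal5 (7.56), and replicate 4 was high for Cp (11.77). Among pregnant untreated livers, replicate 4 was low for Ly6e (9.34, others 9.86 to 9.94).

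The response to micro ZnO, pregnant minus virgin, differed by an interaction test at 10 genes. The log2 difference was 3.92 for Saa3, 1.42 for Serpinb1a, 1.06 for Ly6e, 1.04 for Rac2, 1.03 for Slc39a4, 0.89 for Cxcl16, 0.85 for Ntrk2, 0.69 for Lcp1, -0.61 for Nim1k and -2.37 for Cyp4a14.

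Probe sets without a gene symbol were outside the comparisons. When they were tested together with all others, 177 of them were called between micro ZnO and untreated livers, 106 higher and 71 lower, with log2 changes from -1.54 to 1.79.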

How the results depend on the processing

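The number of probe sets called between micro ZnO and untreated livers was 1036. It was 1379 with dim probe sets left out, 898 when all probe sets were tested, 1179 with trended and robust moderation, 1454 with array weights, 838 after a further quantile normalization and 816 with the 2 groups fitted alone, all within 1.5 times of 1036. It was 529 with each array's interquartile range as a covariate, 22 with a clock score of 12 genes as a covariate, 162 with a change of at least 1.5-fold required, and 531 to 1115 in the fits that left out 1 array. For the array weights and the dim filter the named calls fitted were all kept (114 of 114 and 108 of 108), and 89 of 114 were kept in every fit that left out 1 array. With the clock score 11 of 114 were kept, 97 lost and 6 changed sign, at 0.049 for Arntl, -0.34 for Nr1d2, -0.21 for Dbp, 0.094 for Insig2, 0.33 for Slc30a10 and 0.20 for Tubb2a. That score was built from clock genes that differ between the groups, and the cause was not tested. No micro ZnO array shared a score with an untreated array, so this fit extrapolates a slope estimated over the virgin arms. Clock genes are tied to the score, so their loss under it does not test them. The score ran from -0.07 to 1.00 in micro ZnO and from -0.81 to -0.51 in untreated arrays, without overlap. Standard errors grew with it, to 0.56 for Lcn2 and 0.58 for Slco1a1, so lost calls can also come from lower precision. The log2 changes moved as well, to a larger one for Lcn2 (3.03) and a smaller one for Slc39a4 (-1.03). Calls kept under it include Saa1, Saa2, Orm2, Orm3, Lcn2, Hp, Itih3, Slco1a1, Slc39a4, Cyp17a1 and Cyp39a1.

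Replicate numbers did not pair the mice: deviations of same-numbered arrays correlated between -0.35 and 0.20, and 1 of 6 micro ZnO arrays correlated best with its own number. With the replicate block 469 probe sets were called between micro ZnO and untreated and 974 between micro ZnO and formulation, and 93 of 114 named calls were kept. Between micro ZnO and formulation livers 1599 probe sets were called, 214 with interquartile range as covariate (103 higher and 111 lower, where 15 of 26 named calls were kept), and 847 to 1812 without 1 array. It was 847 without formulation replicate 5, 991 without micro ZnO replicate 2 and 1046 without formulation replicate 2. Between micro ZnO and nano ZnO the count was 0 under every alternative run. For the response of pregnant minus virgin mice, 11 probe sets were called, 5 over all probe sets, 6 without pregnant micro ZnO replicates 3 and 4 (an alternative chosen after seeing the data) and 5 to 49 without 1 array. The counts of 5 came without pregnant micro ZnO replicate 4 or virgin micro ZnO replicate 1, and the highest, 49, without pregnant micro ZnO replicate 1. The micro ZnO minus untreated difference in the arrays' interquartile range was -0.06 (exact permutation p = 0.0758), ranging from -0.0706 to -0.0326 without 1 array. Apart from the counts and signs given here, the causes were not tested. Dim signal limits Slco1a1, Hsd3b5, Sucnr1, Slc10a2, Ntrk2 and Cyp2c55, which the dim filter removes.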
